A study of Rattus norvegicus with 6 samples.

Results

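Developmental transcription factor families were examined in cultured aortic cells. A gene was taken as a member when its symbol in the deposited table began with Hox, Tbx, Fox, Sox, Klf, Meis, Pbx, Prrx, Gata or Nkx (or with the Six-family name) followed by a number or by a letter and a number, or was Mef2 with its letter. Of 13526 genes in the table, 91 had a symbol that starts with such a name, 84 of them were members and 7 were left out: Sox9, Pbxip1, Foxred1, Gatad1, Gatad2a, Gatad2b and Tbxa2r. The members fell into 11 of the 12 families, since 0 symbols began with Nkx, and Nkx genes were not analysed here. The values are TPM, a transcript abundance corrected for transcript length and scaled to a common sum, so levels can be set beside each other between genes.

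The cells were primary vascular smooth muscle cells (VSMCs), grown out of the media of the thoracic aorta of male rats and used after passaging. All 6 libraries came from cells in osteogenic media (OM), where 10 mM β-GP with 3.5 mM CaCl2 drives calcification. The OM plus EMPA group (n = 3) also received 1 μM empagliflozin, an inhibitor of the glucose transporter SGLT2, and the OM group (n = 3) did not. The sample labels give 5 days of treatment, the paper's legend gives a shorter time, and the sample titles read Pi, the paper's term for a different calcification medium with inorganic phosphate. OM was followed because the labels' protocol and the paper's legend name it, and the conflict with the titles is not resolved. VSMCs kept in complete media were not part of the values used, and the shift that OM itself brings cannot be read from them. Neither the labels nor the paper say whether the 3 samples of a group were separate cultures or animals, and the p-values therefore reflect the spread between these samples alone, which may be technical.

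As background, many genes of these families help to lay out the body plan. Some of them, Hox genes above all, remain on in adult cells as a record of where a cell came from. Hox genes sit in 4 clusters whose gene order follows the head-to-tail axis of the embryo, and Hox proteins bind DNA together with Pbx and Meis proteins. Prrx, Tbx and Six-family factors pattern limb, muscle and heart mesenchyme, some forkhead (Fox) and Gata factors open closed chromatin, Klf factors bind GC-rich and CACCC sequences, and Mef2 factors act with the serum response factor on muscle genes. Klf4 is known for repressing contractile genes of VSMCs, and Mef2, Gata6 and Foxo factors are also known from the vessel wall.

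The cells carried most families at moderate levels. The median member had a mean of 8.79 TPM over the 6 libraries, against 16.2 TPM for the median gene of the table. A mean of at least 10 TPM was reached by 39 members and of at least 50 TPM by 8. The lowest 10 members (Foxa2, Foxd2, Gata2, Gata3, Hoxa2, Hoxc5, Hoxd13, Six2, Tbx1 and Tbx10) had means of 0.13 to 0.945 TPM, under the minimum of 1 TPM set for testing, which left 74 members to compare between groups. TPM sum to the same value in every library, so the sequencing depth behind these levels is unknown.

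Prrx1, a homeodomain factor of limb and craniofacial mesenchyme, stood alone at the top. It was at 671, 604 and 659 TPM with empagliflozin and at 636, 638 and 669 TPM without it, a mean 9.52 times that of the next member. Its lowest library lay far above the highest library of any other member, its rank among all 13526 genes was 230, and it alone made up 31.0% to 33.1% of the summed TPM of the 84 members. Its groups overlapped, with a log2 fold change of -0.01 (SE 0.05, limma adjusted p = 0.945). The next 9 places were held by Gata6 (mean 67.9 TPM), Foxs1 (67.3 TPM), Mef2a (65.3 TPM), Prrx2 (62.6 TPM), Foxp1 (61.9 TPM), Foxc2 (54.7 TPM), Foxk2 (50.9 TPM), Hoxb7 (49.2 TPM) and Klf4 (48.2 TPM). The library ranges of neighbours in that order overlapped, so their order is not resolved.

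**Figure D1:**
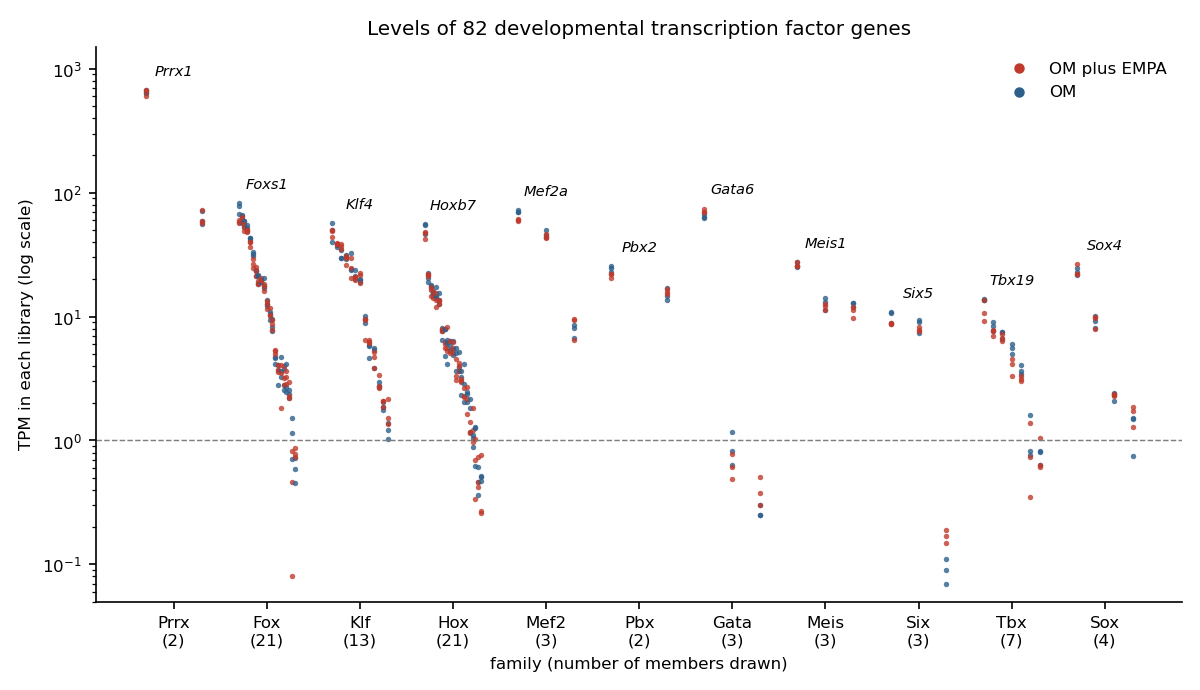
TPM of 82 of the 84 members in each of the 6 libraries on a log scale (vertical axis), grouped by family (horizontal axis, number of members drawn in brackets), with OM plus EMPA libraries in red and OM libraries in blue. The dashed line marks the minimum mean of 1 TPM for testing, and Prrx1 lies above all other members at 604 to 671 TPM.

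The start regions of 3 of the 4 highest members are shown because these genes set the level of their families and because Mef2a was also lower with empagliflozin. They run from 250 bases before to 50 bases after the annotated start, come from RefSeq on build GRCr8, and are written 5′ to 3′ on the gene's strand. Capitals mark matches on either strand to the GC box GGGCGG, the CACCC box, the Meis site TGACAG or the MEF2 site, which is given by name only. The intervals are chr13:78204024-78204323 (minus strand) for Prrx1, chr18:2460659-2460958 (plus strand) for Gata6 and chr1:130392113-130392412 (minus strand) for Mef2a.
Prrx1: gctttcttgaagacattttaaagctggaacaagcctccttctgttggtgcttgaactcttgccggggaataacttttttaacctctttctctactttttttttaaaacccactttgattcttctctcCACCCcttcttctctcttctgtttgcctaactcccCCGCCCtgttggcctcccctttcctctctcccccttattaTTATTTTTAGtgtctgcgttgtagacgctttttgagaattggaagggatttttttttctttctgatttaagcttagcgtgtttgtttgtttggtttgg
Gata6: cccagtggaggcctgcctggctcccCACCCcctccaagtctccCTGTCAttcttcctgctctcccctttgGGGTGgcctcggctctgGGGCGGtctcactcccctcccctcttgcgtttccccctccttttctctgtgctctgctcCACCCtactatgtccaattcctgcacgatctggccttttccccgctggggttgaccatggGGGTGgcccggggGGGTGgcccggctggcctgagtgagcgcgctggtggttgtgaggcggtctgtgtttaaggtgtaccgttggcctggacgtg
Mef2a: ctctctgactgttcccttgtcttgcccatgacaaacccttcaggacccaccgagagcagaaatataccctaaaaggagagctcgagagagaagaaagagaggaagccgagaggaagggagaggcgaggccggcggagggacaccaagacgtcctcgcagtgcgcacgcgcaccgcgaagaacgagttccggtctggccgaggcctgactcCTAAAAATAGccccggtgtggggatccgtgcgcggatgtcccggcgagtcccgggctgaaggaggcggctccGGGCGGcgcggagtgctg
The Prrx1 window held 5 CpG dinucleotides at a GC content of 41.0%, with 1 GC box, 1 CACCC box and 1 MEF2 site. The Gata6 window held 12 CpG, 1 GC box, 5 CACCC boxes and 1 Meis site, and the Mef2a window 28 CpG, 1 GC box and 1 MEF2 site.

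In the RefSeq table used, 51 of the 84 members were matched to such a window out of 27457 in all, and the windows of Foxs1 and Hoxb7 were not analysed here. The member windows were rich in CpG, with a median of 21 CpG against 7 in all windows and a median GC content of 64.7% against 52.3%. A GC box was in 31 of 51 member windows (60.8%) and in 34.9% of all windows, and a CACCC box in 34 (66.7%) against 55.1%. The MEF2 site was in 2 member windows (3.92%), those of Mef2a and Prrx1, and in 3.37% of all windows. The CArG box, the site of the serum response factor, was in 1 (1.96%), that of Klf6, and in 1.64% of all. The Meis site was in 8 (15.7%, against 18.8%), the TATA box TATAAA in 6 (11.8%, against 14.3%), the GATA site AGATAA in 3 (5.88%, against 11.3%), the forkhead site GTAAACA in 2 (3.92%, against 3.76%) and the homeodomain site TAATTA in 1 (1.96%, against 5.35%). These are matches of letters on either strand in a window of 300 bases. The CArG box and the MEF2 site can share letters with each other, and no other overlap was removed.

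Summed over its members, each family kept a characteristic level in all 6 libraries. The Prrx family came first with 708 ± 40.3 TPM (SD, n = 3) with empagliflozin and 710 ± 26.5 TPM without it, of which Prrx1 made up 91.2%. The Fox family followed with 421 ± 13.5 against 457 ± 14.3 TPM. Klf genes summed to 245 ± 5.94 against 242 ± 15.7 TPM. The ranges of these sums did not overlap from family to family, which held for every neighbouring pair down to Meis and the Six-family genes.

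The Hox family summed to 176 ± 5.24 TPM with and 189 ± 4.33 TPM without empagliflozin. Mef2 genes summed to 113 ± 2.04 against 125 ± 2.26 TPM. Pbx genes, the DNA-binding partners of Hox proteins, summed to 82.2 ± 2.27 against 79.9 ± 4.36 TPM. The Gata family came close below with 72.5 ± 2.49 against 65.5 ± 3.001 TPM and was almost wholly Gata6, with 98.4% of its TPM.

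Meis genes summed to 49.4 ± 1.45 TPM with and 51.5 ± 2.31 TPM without empagliflozin. Six-family genes summed to 39.8 ± 1.02 against 45.2 ± 1.63 TPM. Tbx genes summed to 34.1 ± 2.51 against 40.4 ± 0.662 TPM. The Sox family came last with 36.7 ± 1.25 against 35.8 ± 0.807 TPM, and the ranges of the Six-family and Tbx sums, and of Tbx and Sox, overlapped. The Mef2, Six-family and Tbx sums of the treated libraries all lay below those of the OM libraries and the Gata sums all lay above, on TPM and under median-ratio and upper-quartile scaling alike. The Fox and Hox sums also lay below on TPM, while under both scalings their groups overlapped. The Hox sums, for example, became 180 ± 3.38 and 185 ± 3.67 under median-ratio scaling. The other 5 families overlapped between groups on TPM, and of these the Sox sums lay apart, with the treated libraries higher, under both scalings, as did the Pbx sums under median-ratio and the Klf sums under upper-quartile scaling. All 84 members together summed to 1900 to 2027 TPM with empagliflozin and 2030 to 2050 TPM without it. These sums are descriptions and were not tested. Among all tested genes on TPM, the treated libraries lay wholly below for 22.5% and wholly above for 7.85%. The Gata sum is almost wholly Gata6, and Mef2a made up 54.9% of the Mef2 sum.

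Few members changed with empagliflozin. The comparison used limma on log2(TPM + 1) across the 12564 genes whose mean reached 1 TPM, at an adjusted p of 0.05, and a log2 fold change is OM plus EMPA minus OM on that scale, which understates changes of low genes. Of 74 tested members, 2 fell (Foxs1 and Mef2a) and 0 rose. Among all tested genes 870 were called (6.92%), 259 higher (2.06%) and 611 lower (4.86%), while the 2 members made up 2.70% of those tested. Under median-ratio scaling the split over all genes was 394 higher and 380 lower, the median log2 fold change of all genes moved from -0.05 to 0.00, and of the members only Foxs1 was called. At an unadjusted p under 0.05 stood 11 members (14.9%; 3 higher and 8 lower), against 24.1% of all tested genes. In bulk samples fewer cells of a type and less RNA per cell cannot be told apart.

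Foxs1, a forkhead factor known from neural crest derivatives and from cells of the vessel wall, was at 58.4, 56.7 and 60.0 TPM with empagliflozin and at 82.7, 78.4 and 67.7 TPM without it. All 3 treated libraries lay below all 3 OM libraries, and OM replicate 3 was the OM library nearest to them. Its level fell by 0.38 on the log2 scale (SE 0.07, 95% interval -0.55 to -0.21, limma adjusted p = 0.0269). In the deposited table Foxs1 lies on chromosome 3 at 141397016 to 141398281 on the minus strand, in a build that the sources at hand do not name, and its locus overlaps no other listed locus. The call was lost when any library other than OM replicate 3 was left out, with adjusted p between 0.0147 and 0.091 over the 6 fits.

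Mef2a, a MADS-box factor that acts on muscle genes, was at 60.1, 58.9 and 61.5 TPM with empagliflozin and at 69.5, 70.0 and 71.9 TPM without it. The libraries of each group lay close together and the groups did not overlap. Its level fell by 0.22 on the log2 scale (SE 0.04, 95% interval -0.32 to -0.13, limma adjusted p = 0.0213). The authors' table places Mef2a on chromosome 1 at 120847873 to 120982602 on the minus strand, in coordinates that differ from those of GRCr8, and with no overlap with another listed locus. Its adjusted p was 0.0541 under median-ratio scaling, 0.058 under upper-quartile scaling and 0.0503 to 0.0821 when 1 library was left out, so the call was lost in each of these fits.

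The other Mef2 genes did not pass the test. Mef2d was at 44.6 ± 1.91 TPM (SD, n = 3) against 46.6 ± 2.80 TPM, with a log2 interval of -0.20 to 0.07. Mef2c, which is also known from heart and muscle development, was at 8.49 ± 1.73 against 7.74 ± 0.968 TPM, with an interval of -0.24 to 0.46. Of the 13 tested genes that act with Mef2 or the serum response factor (among them Srf, Mrtfa, Mrtfb and the class II deacetylases), 0 rose and 0 fell, with a median log2 fold change of 0.04 against -0.05 for all genes. Srf itself was at 36.3, 32.8 and 36.6 TPM against 32.4, 34.8 and 32.1 TPM. Myocd, the smooth muscle cofactor of Srf, stayed under the minimum for testing at 0.58 to 0.72 TPM with empagliflozin and 0.24 to 0.58 TPM without it.

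**Figure D2:**
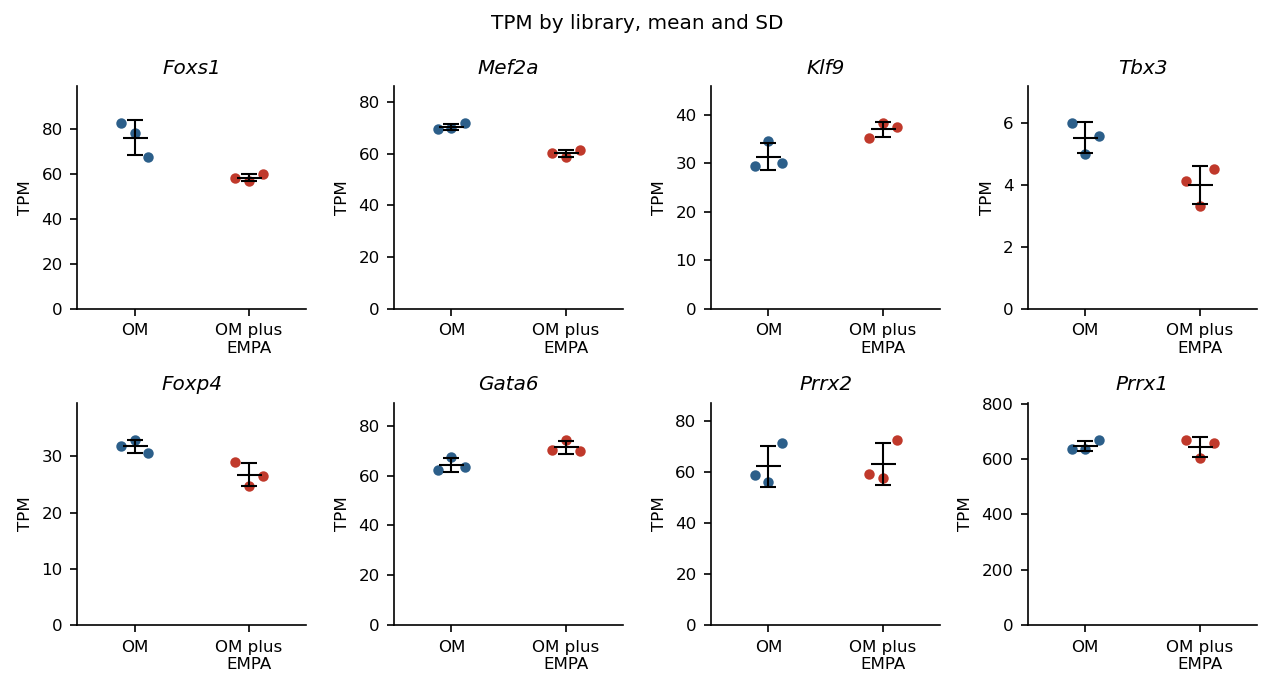
TPM (vertical axes from 0) of 8 members in each library, with OM in blue and OM plus EMPA in red; the long bars are group means and the short bars 1 SD (n = 3). Foxs1 and Mef2a passed the test, Prrx1 and Prrx2 overlapped between groups, and Klf9, Tbx3, Foxp4 and Gata6 did not overlap and missed the adjusted threshold.

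For most members the interval of the difference was narrow. The 95% interval lay within 1.5-fold of TPM + 1 in either direction for 65 of 74 members (87.8%), against 86.2% of all tested genes. In TPM itself this bound is wider for low genes, and 35 tested members had means under 10 TPM. The 9 members whose interval reached 1.5-fold of TPM + 1 were Foxq1, Hoxc8, Hoxc4, Hoxb5, Hoxb8, Hoxa10, Klf11, Sox11 and Tbx3, with means of 1.18 to 5.95 TPM. A change of that size lies within their 95% interval, and other low members may reach 1.5-fold in TPM itself. The log2 fold changes of the members ran from -0.39 (Tbx3) to 0.28 (Klf11). Their median was -0.05, the same as over all tested genes, and their median size was 0.09 against 0.10. A size within 0.2 was found for 82.4% of the members and 76.6% of all tested genes, and a size within 0.3 for 95.9% against 88.0%. The groups did not overlap for 6 members with the OM plus EMPA libraries higher (8.11%, against 7.85% of all genes) and for 10 with them lower (13.5%, against 22.5%).

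**Figure D3:**
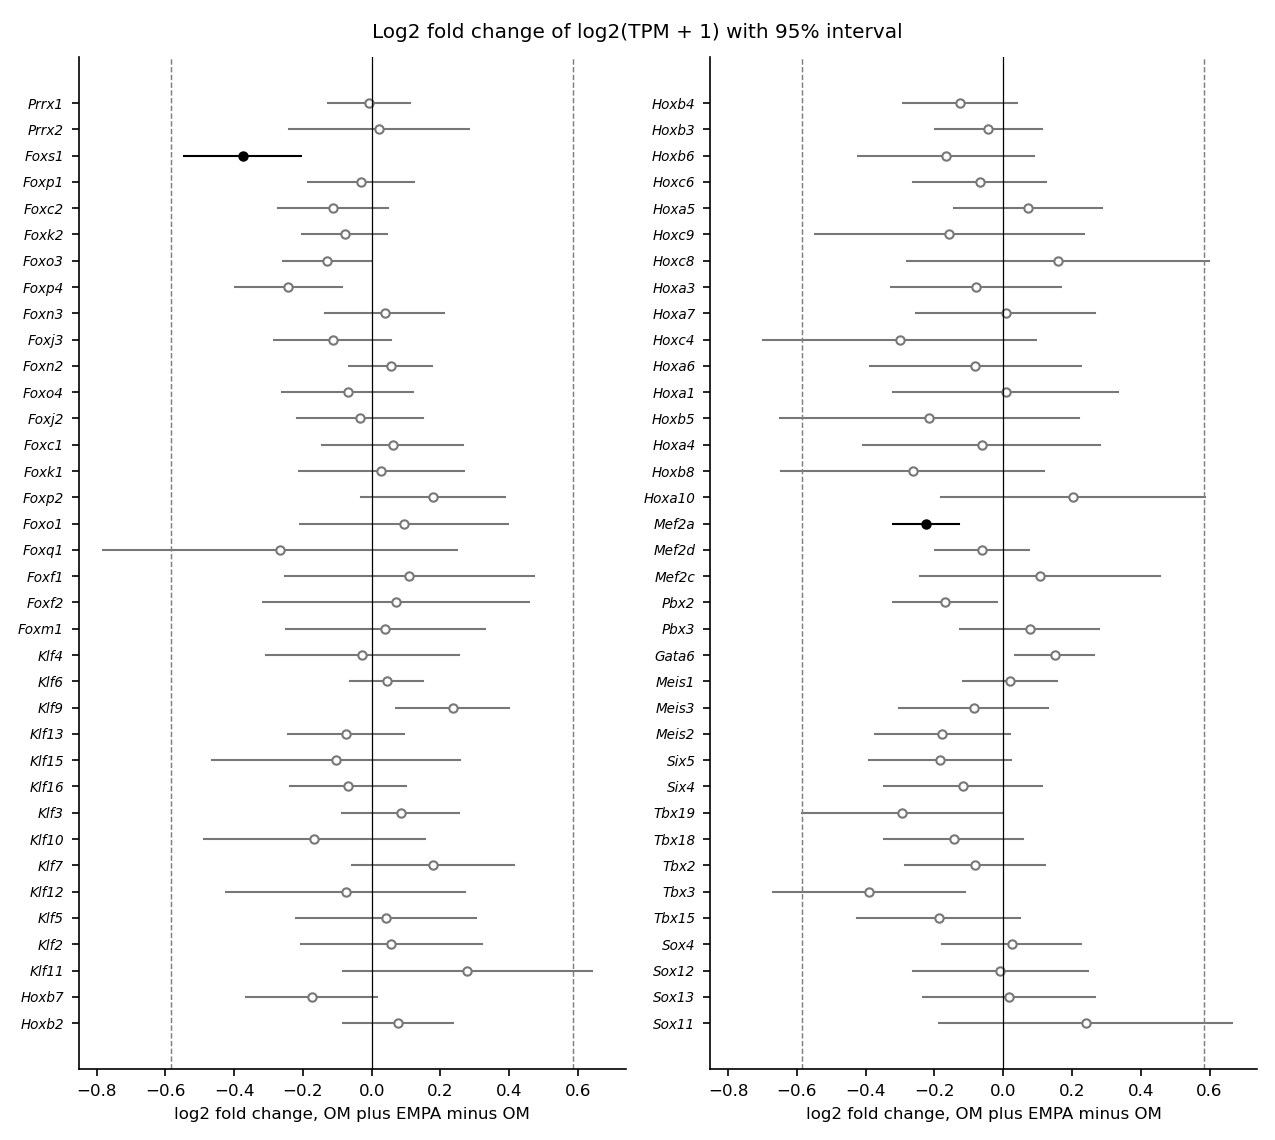
Log2 fold change of log2(TPM + 1), OM plus EMPA minus OM, for 72 of the 74 tested members (points) with 95% limma intervals (lines), ordered by family and level. Filled points mark Foxs1 and Mef2a, the 2 members that passed the test. The dashed lines mark 1.5-fold of TPM + 1, which the intervals of 9 members reach.

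**Figure D4:**
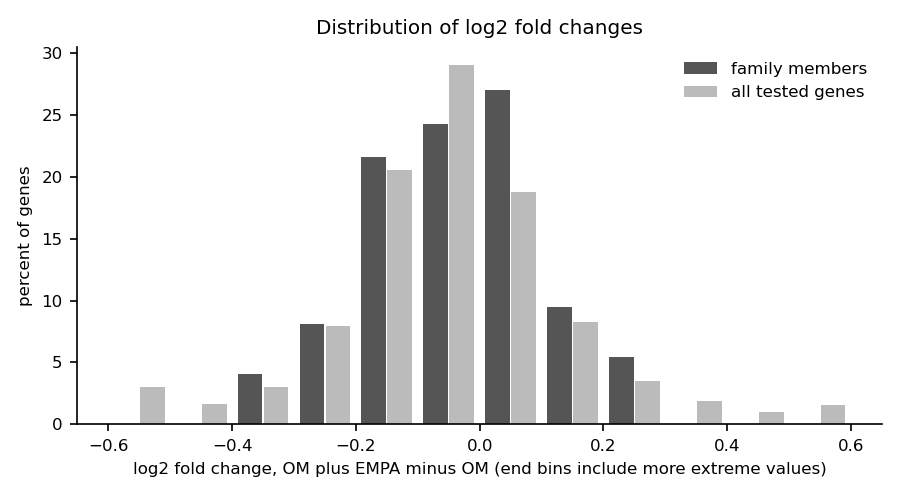
Share of the 74 tested members (dark) and of all 12564 tested genes (light), in percent, by log2 fold change in bins of 0.1, with more extreme values placed in the end bins. The members lie within -0.39 to 0.28, while all genes also fill the outer bins.

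Among the homeodomain families, the Hox genes differed in level by cluster and by paralogue number. The HoxB cluster (7 members, chromosome 10 at 81248887 to 81320192 in the authors' coordinates) held 64.5% to 68.3% of all Hox TPM in each library. HoxA (8 members, chromosome 4 at 81255883 to 81340919) held 15.1% to 17.9%, and HoxC (5 members, chromosome 7 at 134118817 to 134173133) held 16.1% to 18.0%. HoxD was represented by Hoxd13 alone, at 0.26 to 0.77 TPM. The share of HoxB was 65.9 ± 1.37% with and 66.8 ± 1.51% without empagliflozin, and that of HoxC 16.8 ± 1.07% against 16.7 ± 0.743%. These shares differed by less than the SD of either group. The share of HoxA was 17.1 ± 0.743% against 16.2 ± 1.002%, a difference above the SD with empagliflozin and below that without it.

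Along the clusters, paralogue group 7 was highest with a mean of 54.8 TPM (30.02% of Hox TPM), most of it Hoxb7, and group 6 followed with 32.2 TPM (17.6%). Groups 4, 2 and 3 stood at 23.3, 22.0 and 21.02 TPM. The other groups up to 9 were lower, at 10.8 TPM for group 5, 7.43 TPM for group 8, 6.42 TPM for group 9 and 3.07 TPM for group 1. The levels thus did not rise or fall steadily along the groups. The 19 members of groups 1 to 9 held 99.1% of Hox TPM, and Hoxa10 and Hoxd13, the only listed members of groups 10 to 13, summed to 1.64 TPM. Nearly all Hox TPM thus came from groups 1 to 9, and very little from groups 10 to 13, of which only 2 members were listed.

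Hoxb7, the highest Hox gene, was at 48.2, 47.6 and 42.6 TPM with empagliflozin and at 55.4, 46.3 and 55.3 TPM without it. The groups overlapped through OM replicate 2, and its log2 fold change was -0.17 (SE 0.08, limma adjusted p = 0.245). Of the 18 tested Hox genes 0 rose and 0 fell, and 12 had a negative and 6 a positive log2 fold change. The median was -0.07 against -0.05 over all tested genes, most of which also had negative values. In HoxB 6 of 7 were negative. The most negative were Hoxc4 at -0.30 (3.09 to 4.57 TPM against 3.61 to 5.55 TPM) and Hoxb8 at -0.26 (1.15 to 1.40 TPM against 1.18 to 2.15 TPM), both with overlapping groups. With a library left out, Hoxc4 ran from -0.45 (without OM replicate 3) to -0.20 (without OM replicate 1). Hoxb8 ran from -0.41 (without OM replicate 1) to -0.15 (without OM replicate 3). The listed loci of Hoxb3 span Hoxb4, Hoxb5 and Hoxb6, those of Hoxc6 span Hoxc4 and Hoxc5, and those of Hoxa3 span Hoxa4, Hoxa5 and Hoxa6, so the division of reads among these genes is uncertain.

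**Figure D5:**
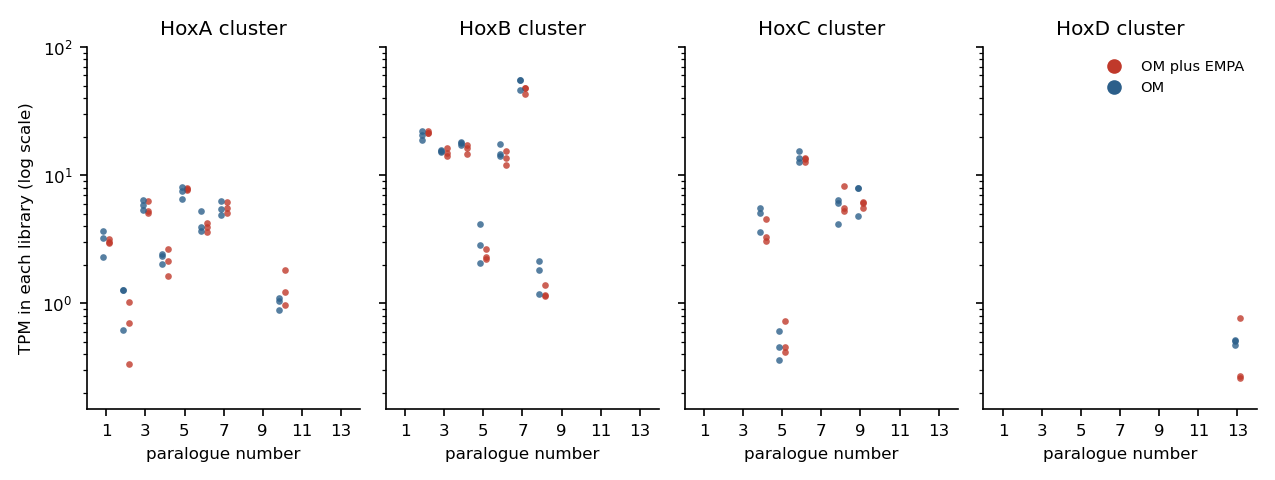
TPM of the 21 Hox members in each library on a log scale (vertical axes) by paralogue number (horizontal axes) in the 4 Hox clusters, with OM in blue and OM plus EMPA in red. The highest points are those of Hoxb7 at 42.6 to 55.4 TPM, and HoxD holds Hoxd13 alone.

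The partners of Hox proteins were present at levels like those of the higher Hox genes. Of the 3 Pbx genes 0 rose and 0 fell. Pbx2 was at 21.5 ± 0.959 against 24.3 ± 1.46 TPM (SD, n = 3) with a log2 fold change of -0.17 and a limma adjusted p of 0.17, and Pbx3 overlapped between groups. Meis1 was at 27.5, 25.8 and 25.7 TPM against 25.6, 27.5 and 24.9 TPM, with a log2 fold change of 0.02 and an interval of -0.12 to 0.16. Meis2 and Meis3 were at 11.02 ± 1.09 and 12.1 ± 0.659 TPM with empagliflozin and at 12.6 ± 0.489 and 12.9 ± 1.51 TPM without it.

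A further list held other homeodomain genes (of the Pknox, Tgif and Irx groups) and Pbxip1, which was left out of the members. Of its 8 tested genes 0 rose and 1 fell. The gene that fell was Tgif1, a repressor of TGF-β responses, at 104, 92.5 and 107 TPM against 157, 126 and 137 TPM (log2 fold change -0.46, limma adjusted p = 0.0246). Under median-ratio scaling 2 genes of this list rose and 1 fell. Of 27 chromatin regulators of Hox clusters, the Polycomb and MLL complexes among them, 0 rose and 0 fell. Their median log2 fold change was -0.10 against -0.05 over all tested genes. Their summed level was lower, at 711 to 741 TPM with and 762 to 769 TPM without empagliflozin, a difference that was not tested.

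Prrx2, the second Prrx gene, has a listed locus that overlaps Ntmt1 on the same strand and Asb6 on the other, so its share of reads is uncertain. Prrx2 was at 59.2, 57.4 and 72.6 TPM with empagliflozin and at 58.7, 56.1 and 71.4 TPM without it. The third library was the highest in both groups, and the log2 fold change was 0.02 (interval -0.24 to 0.28). Six5 was at 8.77 ± 0.0874 against 10.1 ± 1.10 TPM and Six4 at 7.87 ± 0.324 against 8.65 ± 1.07 TPM. The tested Six-family genes had negative log2 fold changes, with a median of -0.18 against -0.05 over all tested genes, and 0 passed the test. Eya3, the 1 listed Eya or Dach cofactor of Six-family proteins, did not pass the test either, at a log2 fold change of -0.11.

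All 5 tested Tbx genes also had negative log2 fold changes, from -0.39 to -0.08, and 0 passed the test. Their median was -0.19 against -0.05 over all tested genes, most of which also had negative values. The signs of the 5 Tbx and 3 Six-family genes held under median-ratio and upper-quartile scaling. Tbx3, a repressor of the T-box family active in heart and limb, was at 4.13, 3.32 and 4.52 TPM with empagliflozin and at 5.99, 4.99 and 5.58 TPM without it. All treated libraries lay below all OM libraries, and the log2 fold change of -0.39 (SE 0.12) was the largest in size among the members, with a limma adjusted p of 0.101. Tbx19, the highest Tbx gene, has a listed locus that overlaps Sft2d2 on the same strand, so the division of reads between them is uncertain. Tbx19 was at 13.7, 10.7 and 9.15 TPM against 13.6, 13.7 and 13.9 TPM. One treated library lay among the OM libraries and 2 below them, and its log2 fold change was -0.29 (SE 0.13, limma adjusted p = 0.204). With a library left out, the value of Tbx19 ran from -0.44 (without OM plus EMPA replicate 1) to -0.17 (without OM plus EMPA replicate 3). Tbx18, known from the embryonic layer that gives rise to coronary smooth muscle, was at 7.46 ± 0.465 against 8.35 ± 0.630 TPM, and Tbx15 at 3.15 ± 0.139 against 3.73 ± 0.332 TPM.

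T-box genes answer to BMP signals, and a list of BMP ligands and receptors, Smads, Id genes, Gja1 and Gja5 was read beside them. Of its 18 tested genes 2 rose and 1 fell (16.7% called, against 6.92% of all tested genes). With the replicate number as a block 6 rose and 2 fell, under median-ratio or upper-quartile scaling 2 rose and 0 fell, and with a library left out 0 to 2 rose and 0 to 1 fell. Id3, an inhibitor of basic helix-loop-helix factors, was at 641, 662 and 819 TPM with empagliflozin and at 437, 503 and 522 TPM without it (log2 fold change 0.53, limma adjusted p = 0.0264). Smad6, an inhibitory Smad, was at 6.94, 8.10 and 9.25 TPM against 5.13, 5.52 and 5.68 TPM (log2 fold change 0.49, limma adjusted p = 0.0391). The ligand Bmp2 fell by 1.12 on the log2 scale (SE 0.26, limma adjusted p = 0.0443), from 30.7 ± 7.496 to 13.9 ± 4.54 TPM (SD, n = 3), and its adjusted p was 0.0529 under median-ratio scaling. Bmp2 thus moved in the direction opposite to Id3 and Smad6.

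The forkhead family was spread over 12 subclasses. FoxP genes led with a mean of 96.0 TPM (21.9% of Fox TPM), followed by FoxS with 67.3 TPM, FoxC with 65.2 TPM, FoxO with 62.2 TPM, FoxK with 59.4 TPM, FoxN with 42.6 TPM and FoxJ with 32.3 TPM. The other 5 subclasses stood at 6.37 TPM (FoxF) or lower. Foxp1 was at 57.9, 61.9 and 63.7 TPM with empagliflozin and at 57.1, 65.6 and 65.2 TPM without it, with a log2 fold change of -0.03. Foxp4 was at 28.9, 24.8 and 26.6 TPM against 31.8, 33.0 and 30.6 TPM, where all treated libraries lay below all OM libraries and the log2 fold change was -0.24 (SE 0.07, limma adjusted p = 0.0749). Foxp2 lay the other way at 5.23 ± 0.236 against 4.51 ± 0.291 TPM, without passing the test.

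Foxc2, a factor of vessel and lymphatic development, was at 52.7, 48.9 and 56.0 TPM with empagliflozin and at 58.8, 59.5 and 52.4 TPM without it, and its groups overlapped. Its relative Foxc1 was at 10.7 ± 0.895 against 10.2 ± 0.802 TPM (SD, n = 3). Foxk2 was at 49.9, 48.2 and 50.1 TPM against 55.3, 52.3 and 49.3 TPM, with overlapping groups and a log2 fold change of -0.08. Foxq1 was at 4.04, 1.84 and 3.53 TPM against 4.70, 3.27 and 3.63 TPM, with a low second library in the treated group. Its interval was the widest of any member, from -0.78 to 0.25, around a log2 fold change of -0.27. With a library left out, the value of Foxq1 ran from -0.43 (without OM plus EMPA replicate 1) to -0.02 (without OM plus EMPA replicate 2).

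FoxO factors are held out of the nucleus by insulin and AKT signals and switch on genes of stress resistance and cell cycle arrest. Foxo3 was at 38.8 ± 2.26 against 42.5 ± 0.784 TPM (SD, n = 3), Foxo4 at 17.4 ± 1.08 against 18.4 ± 1.73 TPM and Foxo1 at 3.80 ± 0.257 against 3.53 ± 0.656 TPM. None of the 3 FoxO genes passed the limma test at an adjusted p of 0.05, and at an unadjusted p under 0.05 only Foxo3 stood, at 0.046. Of 26 tested regulators and targets of FoxO 0 rose and 3 fell. Cited2, a transcriptional coregulator, fell by 0.76 on the log2 scale (limma adjusted p = 0.0229), from 87.7 ± 14.1 to 51.5 ± 8.97 TPM. Sgk1, a kinase with targets in common with AKT, fell by 0.48 (limma adjusted p = 0.0232). The median of the list was 0.01, and under median-ratio scaling 1 of its genes rose and 2 fell.

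Foxm1, which drives genes of mitosis, was low at 2.28, 2.95 and 2.22 TPM with empagliflozin and 2.55, 2.22 and 2.36 TPM without it. Its groups overlapped, with a log2 interval of -0.25 to 0.33. Of 25 tested partners and targets of Foxm1 0 rose and 1 fell, and the median was 0.11. The gene that fell was Lin37, a subunit of the complex that Foxm1 joins, at 22.9 ± 1.61 against 30.3 ± 3.25 TPM (log2 fold change -0.39, limma adjusted p = 0.0402), and its adjusted p was 0.0569 under median-ratio scaling.

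None of the 13 Klf genes passed the limma test. Klf4 was at 48.7, 49.7 and 44.0 TPM with empagliflozin and at 57.1, 49.8 and 39.6 TPM without it. The OM libraries were spread on both sides of the treated ones, and the log2 fold change was -0.03 (interval -0.31 to 0.25). Klf9, a target of glucocorticoid and thyroid hormone, was at 35.3, 38.3 and 37.5 TPM against 29.5, 34.6 and 29.99 TPM. All treated libraries lay above all OM libraries, with a log2 fold change of 0.24 (SE 0.07, limma adjusted p = 0.0958), and with the replicate number as a block the adjusted p was 0.0412. Klf11, a factor of the TGF-β response, had the highest log2 fold change of the members at 0.28 (SE 0.16), from levels of 1.37 to 2.18 TPM against 1.02 to 1.38 TPM that overlapped. With a library left out, the value of Klf11 ran from 0.15 (without OM plus EMPA replicate 3) to 0.36 (without OM plus EMPA replicate 2). Klf15 varied widely within both groups, at 29.7, 20.4 and 24.9 TPM against 32.6, 23.8 and 24.4 TPM. Klf2 and Klf5, known from endothelium and from growing smooth muscle, were at 1.77 to 2.08 TPM and 2.66 to 3.36 TPM.

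Gata6, the Gata factor of smooth muscle, was at 70.2, 74.5 and 69.7 TPM with empagliflozin and at 62.2, 67.4 and 63.4 TPM without it. All treated libraries lay above all OM libraries, and the log2 fold change of 0.15 (SE 0.05, interval 0.03 to 0.27) missed the threshold at a limma adjusted p of 0.122. Gata2 and Gata3, known from blood and lymphoid cells, had means of 0.332 and 0.753 TPM. Of 8 cofactors of Gata proteins 0 rose and 0 fell, while 1 rose under median-ratio scaling, under upper-quartile scaling and on TPM without mitochondrial transcripts, and 1 rose and 1 fell with the replicate block. Sox4, the highest of the 4 Sox members, was at 26.5, 22.0 and 22.1 TPM against 24.7, 21.6 and 23.0 TPM, with a log2 fold change of 0.02. Sox11, another factor of the same subgroup, was at 1.29, 1.74 and 1.88 TPM against 1.51, 1.50 and 0.75 TPM, where the log2 fold change of 0.24 (SE 0.18) came with overlapping groups. With a library left out, the value of Sox11 ran from 0.07 (without OM replicate 3) to 0.34 (without OM plus EMPA replicate 1). Sox9, the cartilage factor outside the members, rose, at 19.8 ± 0.827 TPM with and 12.2 ± 0.914 TPM without empagliflozin (log2 fold change 0.65, SE 0.07, limma adjusted p = 0.00451).

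Transcription factors of other developmental families were read from a separate list. Of its 94 genes 51 were listed and 45 tested, of which 1 rose and 2 fell. Hey2, a target of Notch in arteries, was at 11.1, 10.4 and 10.2 TPM with empagliflozin and at 6.34, 8.08 and 6.34 TPM without it (log2 fold change 0.55, limma adjusted p = 0.0227). Twist2, a mesenchymal factor, fell by 0.70 on the log2 scale (limma adjusted p = 0.0198), from 33.9 ± 3.64 to 20.6 ± 3.45 TPM (SD, n = 3). Zeb1, a repressor known from the change of epithelium to mesenchyme, fell by 0.27 (limma adjusted p = 0.0278) and had an adjusted p of 0.0615 under median-ratio scaling. The list's median of -0.02 and its share called of 6.67% stood beside -0.05 and 6.92% over all tested genes.

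The members also share GO terms, which largely follow from the choice by family name. In the GO terms that the authors' table lists, embryonic skeletal system morphogenesis was given to 18 of 74 tested members (24.3%) and to 0.325% of all tested genes with a term. Anterior/posterior pattern specification was given to 16 (21.6%, against 0.533%), most of them Hox genes. Blood vessel development was given to 6 (8.11%, against 0.434%), namely Foxc1, Foxc2, Foxf1, Foxo1, Foxs1 and Tbx3. Ossification was given to Foxc1 and Foxc2 and osteoblast differentiation to Mef2d. A positive role in transcription by RNA polymerase II was listed for 51 (68.9%) and a negative role for 37. The 84 members lay on 21 chromosomes, with the most on chromosome 4 (14) and chromosome 10 (9), which hold HoxA and HoxB. The listed locus of 23 members overlapped another listed locus. The overlap was on the same strand for 16 (Tbx19, Prrx2 and Hox genes among them), where the division of reads is uncertain. It was on the other strand for 11 (Prrx1, Gata6, Foxp1 and Sox4 among them), and some members had both. Because no source used here states that counting used strand, reads of a pair on opposite strands cannot be told apart either.

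Defining markers of cell types were read beside these results. Of 8 smooth muscle markers 7 were listed, 5 of them rose and 0 fell. Their summed level was 2809 to 3291 TPM with and 2001 to 2462 TPM without empagliflozin. Smtn and Myh11 did not pass the test, at log2 fold changes of 0.15 and -0.17. The groups of Myh11 overlapped, at 15.8 ± 2.4 against 17.9 ± 2.5 TPM (SD, n = 3). Of 13 tested contractile genes 6 rose and 0 fell, among them Acta2 (488 ± 65.0 against 302 ± 57.6 TPM, log2 fold change 0.70, limma adjusted p = 0.0281), Tagln (log2 fold change 0.43, limma adjusted p = 0.0297), Cnn1 (0.77, limma adjusted p = 0.015) and Lmod1 (0.90, limma adjusted p = 0.0183). The count of 6 went down to 0 when a library was left out. Of 8 fibroblast and adventitia markers 7 were listed, 1 rose (Scara5) and 2 fell (Dcn and Pdgfra), with sums of 4779 to 5528 TPM against 6186 to 7019 TPM that are mostly Dcn. Under median-ratio scaling, upper-quartile scaling or TPM without mitochondrial transcripts 0 of them fell, and with a library left out 0 to 1.

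Of 12 endothelial markers 3 were listed (Egfl7, Erg and Flt1), with sums of 26.6 to 29.3 TPM against 23.7 to 28.2 TPM, and Pecam1, Cdh5 and Kdr were not analysed here. Of 10 macrophage and leukocyte markers Cd14 and Cd68 were listed, and Cd68 fell, from 13.8 ± 1.07 to 7.49 ± 2.23 TPM (SD, n = 3, limma adjusted p = 0.0378). Neural and cardiomyocyte markers had 3 of 7 and 2 of 6 listed, with sums of 29.4 to 37.0 TPM and 3.64 to 4.07 TPM over the 6 libraries and 0 past the test. None of the listed markers named here was at 0. Transcripts of the mitochondrial genome made up 10.3% to 10.9% of TPM with empagliflozin and at most 9.69% without it, and since TPM share 1 sum the other genes of a library share what is left. The part of these marker and mitochondrial levels in the values of Foxs1 and Mef2a was not tested, except that both were still called on TPM without mitochondrial transcripts.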

How the data were processed

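RNA-seq values of 6 libraries of rat VSMCs were used, 3 of the OM plus EMPA group and 3 of the OM group. The authors deposited, for 13526 genes, the TPM of each library, their own fold change and p-values (not used here), and GO terms. A second deposited table of 181 of these genes was not used. Tools named in the submitters' processing notes are RSEM, DESeq2, fastp and HISAT2 2.0.5, and the genome build was not given in the sources used. TPM hold no record of depth, so no precision by depth can be given.

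The 12564 genes whose mean reached 1 TPM were compared with limma 3.58.1 in R 4.3.3 on log2(TPM + 1), with the group as the only term, a trend of variance with mean, 4 residual and 3.8 prior degrees of freedom, two-sided p-values and Benjamini-Hochberg adjustment over all tested genes, called at 0.05. The script was tested on simulated data. Tables and figures were made with Python 3.11.15, pandas 2.3.3, numpy 2.4.6 and matplotlib 3.10.9. Named members are the highest of each family, the 10 highest, the called ones and the 10 with the largest fold changes, and of each of 10 gene lists up to 4 called genes with the smallest p. Other members were named after their values were seen. Some genes that the rule takes are not reported here. The members and lists were chosen with earlier results of these data known. Alternatives were median-ratio and upper-quartile scaling, TPM without mitochondrial transcripts, a pseudocount of 0.1, no filter, at least 1 TPM in each library, limma without the trend, an adjusted p of 0.01, the replicate number as a block and each library left out. Promoter windows came from RefSeq (GRCr8), and no window is shown for members not matched to the table used.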

Additional observations from a re-analysis of the deposited data

How the results depend on the processing

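The count of members that rose was 0 and became 1 (Klf9) with the replicate number as a block, and 0 to 1 when each library was left out. The count of members that fell was 2 and became 1 under median-ratio scaling, 1 under upper-quartile scaling, 0 without the trend, 0 at an adjusted p of 0.01 and 0 to 1 with a library left out. Foxs1 had an adjusted p of 0.0627 and Mef2a of 0.0607 without the trend, and both calls held with the block. Over all tested genes, 259 rose and 611 fell. These counts became 394 and 380 under median-ratio scaling, 403 and 384 under upper-quartile scaling, 449 and 951 with the block, 154 and 366 without the trend, 35 and 159 at an adjusted p of 0.01, and 80 to 216 and 245 to 438 with a library left out. Signs turned for members near 0. Foxp1 moved from -0.03 to 0.0261 and 0.0311 under median-ratio and upper-quartile scaling, Klf4 from -0.03 to 0.0304 and 0.0354, and Prrx1 from -0.01 to 0.0511 and 0.0562, and to 0.0202 without mitochondrial transcripts. With a library left out the log2 fold change ran from -0.0964 to 0.0065 for Foxp1, -0.167 to 0.0908 for Klf4, -0.0111 to 0.0593 for Meis1, -0.0374 to 0.0385 for Prrx1, -0.0819 to 0.126 for Prrx2 and -0.0612 to 0.0721 for Sox4. Among the gene lists, with the block 3 FoxO regulators or targets rose and 4 fell, 1 other developmental factor rose and 4 fell, and 1 Mef2 or serum response factor regulator fell. With a library left out 0 to 2 of the FoxO list fell, 0 to 1 other developmental factors rose and 0 to 2 fell, and 0 to 5 smooth muscle markers rose. The cause of these changes was not tested. The mean of each family sum over the 6 libraries moved by less than 1 SD under median-ratio scaling and without mitochondrial transcripts. The scaling factors were centred over the 6 libraries, which nearly fixes that mean, so its steadiness cannot show that the family levels are robust. The group means moved by more in places, such as Mef2 with empagliflozin from 113 to 116 under median-ratio scaling.

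The replicate numbers are not known to pair the libraries. Deviations of same-numbered libraries from their group means correlated at 0.0979, 0.162 and 0.0575, and every library correlated best with its own number, a hint from the data and not from the design. With the block, Klf9 reached an adjusted p of 0.0412. The depth behind TPM is unknown, and 10 members lay under the minimum for testing.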
